A study of Mus musculus with 18 samples.

Results

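Gene expression was compared between mice with periodontitis and control mice on the day their mandibular first molar was extracted (0 d). The comparison covers all genes of the deposited count table in 6 of the 18 samples of the series, 3 labelled periodontitis and 3 labelled Control. The other 12 samples are the same arms at 3 d and 7 d and are used here to share 1 estimate of spread and to set the later days beside 0 d. All 6 animals or sites at 0 d share the extraction, and each arm is given by a label alone, held in a field named genotype although no allele is named. The sources used here give neither the strain, age and sex of the mice nor the way periodontitis was induced, any pooling of animals or the interval between extraction and sampling on 0 d. The samples are named as the first molar itself, whereas the series title speaks of extraction sockets. Each group holds 3 libraries that the series describes as biological replicates, and p-values measure the spread between these libraries.

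Periodontitis is a bacterially driven inflammation of the gum, ligament and bone that hold a tooth. Bacterial products engage pattern receptors on resident and recruited cells, which release interleukin-1, tumour necrosis factor and chemokines through the transcription factor NF-kB, and NF-kB in turn induces its own inhibitors. Interleukin-23 and interleukin-17 sustain neutrophil recruitment at the gum, and RANKL on bone-lining and immune cells drives osteoclasts that resorb alveolar bone. Extraction opens the socket to blood and to the marrow of the jaw, so tissue taken at a socket can hold blood, marrow, bone, ligament, gum, nerve and muscle in differing amounts. In such bulk samples fewer cells of a type and less RNA per cell cannot be told apart.

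The 6 libraries held 16475567 to 17041124 counts, of which the 10 most abundant genes took 10.99% to 18.4% and mitochondrially encoded genes 2.02% to 2.87%. Bone matrix transcripts were high in all 6: Col1a1, the main collagen of bone, stood at 53047, 50577 and 32101 CPM (counts scaled to the size of the library) in controls 1 to 3 and at 51892, 70960.3 and 54195 CPM in periodontitis 1 to 3. The defining dentine gene Dspp was far less even, with 589, 9.14 and 8.18 CPM in controls 1 to 3 and 0, 0.0696 and 1.59 CPM in periodontitis 1 to 3. Only control 1 carried much Dspp, and it was at or near 0 in all 3 periodontitis libraries. How much tooth tissue each library held was not tested. Markers of ganglion neurons were high in periodontitis 1 and 3, and those of skeletal muscle were high in periodontitis 2 and 3. The mean log2 CPM of a neuron list was -0.35, -0.51 and -0.35 in controls 1 to 3 and 4.24, 0.74 and 3.84 in periodontitis 1 to 3. That of a sarcomere list was 1.65, 1.15 and 1.31 in the controls and 1.74, 3.30 and 4.61 in periodontitis 1 to 3. No periodontitis library was low in both, so results are given beside their values in each library. For some lists and genes they are also given without those libraries. Most genes are given only with 1 library left out at a time. Such fits keep at least 1 library rich in each tissue, so a call that holds in them can still depend on those libraries.

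Of 18697 genes tested, 1547 (8.27%) had an adjusted p under 0.05, and these are called. Of these, 899 (4.81% of genes tested) were higher in periodontitis and 648 (3.47%) lower. These shares are the ones to set beside each count of called list members below. The higher genes moved further, with a median log2 fold change of 1.45 against -0.67 for the lower genes and -0.02 over all genes tested. At least 2-fold differences were reached by 607 higher and 187 lower genes. The 3 periodontitis and 3 control libraries did not overlap in 90.3% of called genes, against 28% of all genes tested. Protein-coding genes made up 863 of the higher and 622 of the lower genes.

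Single libraries weighed heavily on these counts. Without periodontitis 1 only 258 genes were called, without control 2 there were 316, without control 3 there were 351 and without periodontitis 3 there were 614. Leaving out control 1 gave 1153 calls and leaving out periodontitis 2 raised them to 2121. In all 6 of these fits 179 genes (0.957%) were called, 132 higher and 47 lower, while 478 were called in a single one of the 6 and 140 in none. Among the 3 periodontitis libraries, periodontitis 1 was the highest in 66.6% of the higher genes, against 29.4% of all genes tested, and the lowest in 73.3% of the lower genes, against 37.7%. Control 3 was the highest control in 62.3% of the lower genes, against 37.7% of all genes tested. Periodontitis 2 was the lowest in neuron markers of its arm. With it as the only library of that arm, 866 of the 899 higher and all 648 lower genes kept their sign. These genes were chosen by a call that used periodontitis 2 and the same controls. That choice by itself favours the same sign, so nothing is concluded from it. With the neuron and sarcomere lists together as covariates 1 gene was called, Aplnr.

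**Figure D1:**
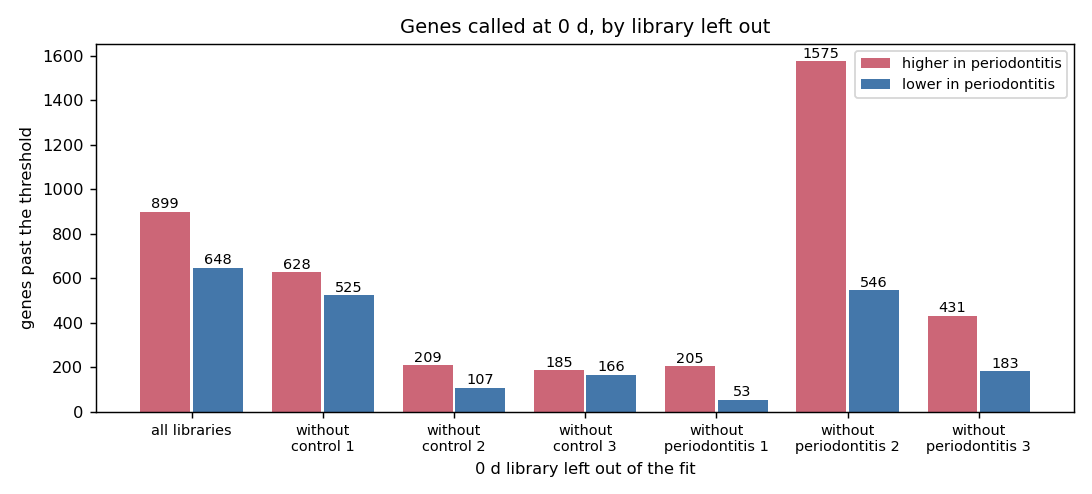
Number of genes past an adjusted p of 0.05 at 0 d (vertical axis) in the fit of all libraries and in 6 fits that each leave out 1 library of 0 d (horizontal axis), with genes higher in periodontitis in red and lower in blue. The totals fall to 258 without periodontitis 1 and rise to 2121 without periodontitis 2.

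Aplnr, the apelin receptor of endothelial and venous progenitor cells, had the smallest p of all genes. It stood at 8.07, 5.19 and 7.93 CPM in controls 1 to 3 and 56.7, 40.4 and 49.2 CPM in periodontitis 1 to 3. All 3 periodontitis libraries lay several-fold above all controls, and the log2 fold change was 2.79 ± 0.22 (SE, adjusted p = 2.20e-05). It was called in every alternative tried. Ackr1, the scavenging chemokine receptor that marks venules, stood at 9.13, 7.84 and 6.90 CPM in controls 1 to 3 and 22.2, 16.1 and 16.9 CPM in periodontitis 1 to 3. No libraries overlapped between arms, with a log2 fold change of 1.21 ± 0.23 (SE, adjusted p = 0.00974), and without periodontitis 1 the adjusted p was 0.0528. The endothelial list as a whole showed little: 3 of 33 genes tested rose and 1 fell, with a median log2 fold change of 0.21. The rises numbered 3, 2 and 2 with control 1, 2 or 3 left out and 1, 4 and 2 with periodontitis 1, 2 or 3 left out. Kdr, the main receptor for VEGF on endothelium, was not called, with a log2 fold change of 0.53 ± 0.21 (SE, adjusted p = 0.123).

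A pair of clotting inhibitors fell. Tfpi2, a Kunitz-type inhibitor of plasmin and of factor VIIa with tissue factor, stood at 114, 98.97 and 137 CPM in controls 1 to 3 and 34.4, 43.4 and 40.1 CPM in periodontitis 1 to 3. All periodontitis libraries lay below all controls, with a log2 fold change of -1.57 ± 0.15 (SE, adjusted p = 1.09e-04). Thbd, thrombomodulin, which turns thrombin from clotting towards protein C activation, stood at 665, 594 and 572 CPM in controls 1 to 3 and 198, 301 and 285 CPM in periodontitis 1 to 3. Periodontitis 1 was the lowest and no libraries overlapped, with a log2 fold change of -1.23 ± 0.19 (SE, adjusted p = 0.00414), and both calls held in all 6 fits that leave out a library. F3, tissue factor, which starts clotting, stood at 31.2, 31.3 and 21.8 CPM in controls 1 to 3 and 53.4, 78.5 and 61.8 CPM in periodontitis 1 to 3. It rose by 1.20 ± 0.34 (SE, adjusted p = 0.0428) on the log2 scale, but without any 1 of the 6 libraries the adjusted p was 0.0634 to 0.156. Of 26 coagulation and plasminogen genes tested, 2 rose and 2 fell, with a median log2 fold change of -0.11, and the rises were lost with any 1 of the 6 libraries left out.

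Interleukin-1 transcripts were higher in periodontitis, and 5 of 14 interleukin-1 family genes tested rose and none fell. Il1a, the alarmin form of interleukin-1, stood at 3.90, 4.67 and 4.21 CPM in controls 1 to 3 and 32.1, 53.3 and 42.5 CPM in periodontitis 1 to 3. Periodontitis 2 was the highest and even periodontitis 1 stood far above the controls, with a log2 fold change of 3.32 ± 0.53 (SE, adjusted p = 0.00491). Il1b, the secreted form, stood at 300.2, 231 and 223 CPM in controls 1 to 3 and 918, 1641 and 972 CPM in periodontitis 1 to 3. The levels of the arms did not overlap and the log2 fold change was 2.23 ± 0.56 (SE, adjusted p = 0.0283), but without control 2 or 3, or without periodontitis 1 the adjusted p was 0.0615 to 0.105. Il1rn, the receptor antagonist that blocks both, stood at 72.7, 60.9 and 81.7 CPM in controls 1 to 3 and 198, 409 and 239 CPM in periodontitis 1 to 3. It rose by 1.97 ± 0.37 (SE, adjusted p = 0.00874) on the log2 scale, again with periodontitis 2 highest. The same order held for Nlrp3, the sensor of the inflammasome that matures interleukin-1beta, at 51.6, 48.9 and 41.9 CPM in controls 1 to 3 and 154, 292 and 192 CPM in periodontitis 1 to 3. The log2 fold change was 2.16 ± 0.34 (SE, adjusted p = 0.00431), and the calls of Il1a, Il1rn and Nlrp3 held in all 6 fits that leave out a library. The number of interleukin-1 family genes called higher was 4, 2 and 3 with control 1, 2 or 3 left out and 3, 5 and 5 with periodontitis 1, 2 or 3 left out.

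Chemokines that draw neutrophils and monocytes rose in part. Ccl3, or MIP-1alpha, stood at 9.13, 10.1 and 7.81 CPM in controls 1 to 3 and 95.1, 210.04 and 169 CPM in periodontitis 1 to 3. The arms were far apart, with a log2 fold change of 4.13 ± 0.70 (SE, adjusted p = 0.00568). Cxcl3, a ligand of the neutrophil receptor CXCR2, stood at 32.1, 30.1 and 20.99 CPM in controls 1 to 3 and 118, 321 and 125 CPM in periodontitis 1 to 3, and periodontitis 2 was well above the other two. The fitted log2 fold change was 2.76 ± 0.53 (SE, adjusted p = 0.00921). Ccl4, or MIP-1beta, rose by 2.32 ± 0.63 (SE, adjusted p = 0.0377) on the log2 scale, and without any 1 of the 6 libraries the adjusted p was 0.0634 to 0.133. Ccl20, the ligand that draws CCR6-bearing cells to epithelia, stood at 1.19, 0.972 and 0.427 CPM in controls 1 to 3 and 4.81, 6.61 and 5.43 CPM in periodontitis 1 to 3. It rose by 2.69 ± 0.73 (SE, adjusted p = 0.0376), and without control 1, 2 or 3, or without periodontitis 1 or 3 the adjusted p was 0.0569 to 0.139. Ccrl2, which holds the chemoattractant chemerin at the cell surface, rose by 1.77 ± 0.31 (SE, adjusted p = 0.00625) on the log2 scale. Cxcl10, a T cell attractant induced by interferon, stood at 100.2, 65.9 and 100.4 CPM in controls 1 to 3 and 183, 473 and 209 CPM in periodontitis 1 to 3. Its log2 fold change was 1.70 ± 0.42 (SE, adjusted p = 0.0266), and without control 2 or 3, or without periodontitis 2 the adjusted p was 0.0643 to 0.0969. Among CC chemokines and receptors 4 of 27 rose and 1 fell, and among CXC chemokines and receptors 4 of 20 rose and 1 fell. The CC genes that rose numbered 2, 2 and 2 with control 1, 2 or 3 left out and 2, 6 and 2 with periodontitis 1, 2 or 3 left out. The CXC genes that rose numbered 3, 1 and 1 with control 1, 2 or 3 left out and 2, 3 and 4 with periodontitis 1, 2 or 3 left out. The 1 that fell in each list was a marker of blood cells, Ccr2 of monocytes and Pf4 of platelets.

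Tnf, tumour necrosis factor, stood at 6.29, 9.59 and 9.09 CPM in controls 1 to 3 and 37.7, 43.2 and 51.8 CPM in periodontitis 1 to 3. No libraries overlapped and the log2 fold change was 2.41 ± 0.43 (SE, adjusted p = 0.00687). Of 27 tumour necrosis factor superfamily ligands and receptors tested, 4 rose and 1 fell, the latter a receptor of B cells, Tnfrsf13c, and the rises numbered 4, 1 and 2 with control 1, 2 or 3 left out and 4, 4 and 4 with periodontitis 1, 2 or 3 left out. Osm, oncostatin M, a relative of interleukin-6 that neutrophils and macrophages release, stood at 54.3, 43.6 and 31.5 CPM in controls 1 to 3 and 106, 154 and 97.5 CPM in periodontitis 1 to 3. The gene's log2 fold change was 1.47 ± 0.21 (SE, adjusted p = 0.00326), and both calls held in all 6 fits that leave out a library. Other inflammatory genes commonly measured in gum disease were not called. Il6 stood at 231, 185 and 183 CPM in controls 1 to 3 and 187, 341 and 228 CPM in periodontitis 1 to 3, and the arms overlapped, with a log2 fold change of 0.34 ± 0.58 (SE, adjusted p = 0.765). Ptgs2, cyclooxygenase-2, overlapped too, at 532, 319.9 and 287 CPM in controls 1 to 3 and 445, 749 and 531 CPM in periodontitis 1 to 3. It had a log2 fold change of 0.60 ± 0.51 (SE, adjusted p = 0.498). Cxcl1 overlapped as well, with a log2 fold change of 0.32 ± 0.54 (SE, adjusted p = 0.758), while Cxcl2 stood at 267, 217 and 161 CPM in controls 1 to 3 and 748, 1351 and 765 CPM in periodontitis 1 to 3. The arms did not overlap for Cxcl2, as for 28% of all genes tested. Its log2 fold change of 2.15 ± 0.72 (SE, adjusted p = 0.0718) missed the threshold.

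**Figure D2:**
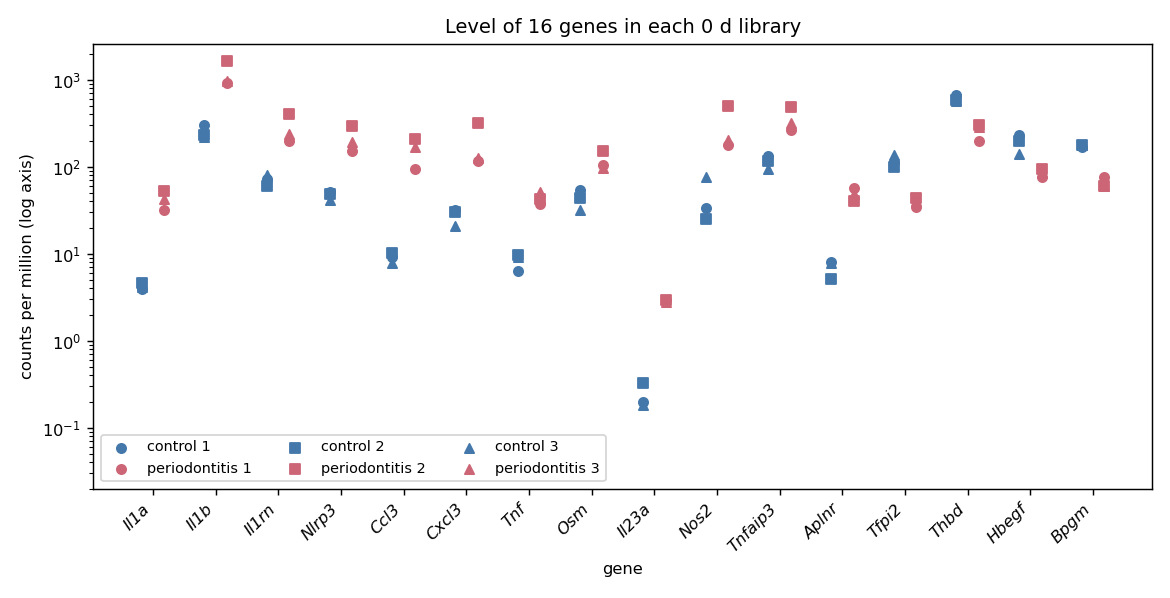
Level of 16 genes in each library of 0 d, in CPM on a log axis, with controls in blue and periodontitis in red and a marker shape for each replicate number. For Il1a the controls sit at 3.90 to 4.67 CPM and the periodontitis libraries at 32.1 to 53.3 CPM, and the arms do not overlap for any of the 16 genes. All 16 were picked from the called genes, of which 90.3% do not overlap, against 28% of all genes tested.

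Interleukin-23 and interleukin-17 transcripts were scarce but higher in periodontitis. Il23a, the p19 subunit of interleukin-23, stood at 0.199, 0.324 and 0.183 CPM in controls 1 to 3 and 2.94, 2.92 and 2.77 CPM in periodontitis 1 to 3. The 3 periodontitis libraries were nearly equal, and the log2 fold change was 3.57 ± 0.43 (SE, adjusted p = 9.32e-04), called in all 6 fits that leave out a library. Il17a, the effector cytokine that interleukin-23 sustains, stood at 0.397, 0 and 0 CPM in controls 1 to 3 and 3.005, 1.81 and 1.71 CPM in periodontitis 1 to 3. It was absent from the counts of 2 controls, and its call (adjusted p = 0.0156) rests on few counts, since without control 2 or 3, or without periodontitis 1 the adjusted p was 0.0606 to 0.0621. Of 20 T helper cytokine and receptor genes tested 5 rose and none fell, and the rises numbered 4, 2 and 2 with control 1, 2 or 3 left out and 1, 5 and 3 with periodontitis 1, 2 or 3 left out. By contrast, edgeR called none of 33 T and NK cell genes, whose median log2 fold change was -0.13. Of those 33, 6 had an unadjusted p under 0.05, DESeq2 called 3 lower and voom 1 higher and 7 lower.

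Enzymes that make inflammatory mediators moved in both directions. Nos2, the inducible nitric oxide synthase, stood at 34.02, 25.5 and 76.6 CPM in controls 1 to 3 and 180.2, 499 and 206 CPM in periodontitis 1 to 3. Control 3 was the highest control and periodontitis 2 the highest library, and the log2 fold change was 2.70 ± 0.50 (SE, adjusted p = 0.00852). Arg1, arginase 1, which competes for the same arginine, stood at 0.397, 1.75 and 1.16 CPM in controls 1 to 3 and 44.8, 6.05 and 4.37 CPM in periodontitis 1 to 3. Periodontitis 1 lay far above the others and without control 2 or 3, or without periodontitis 1 the adjusted p was 0.0531 to 0.0988, with a log2 fold change of 4.05 ± 0.88 (SE, adjusted p = 0.0166) over all libraries. Ptgs1, the constitutive cyclooxygenase, stood at 57.1, 58.6 and 73.04 CPM in controls 1 to 3 and 26.02, 34.9 and 31.6 CPM in periodontitis 1 to 3 with a log2 fold change of -1.03 ± 0.17 (SE, adjusted p = 0.00568). The calls of Nos2 and Ptgs1 held in all 6 fits that leave out a library. Of 33 prostanoid, leukotriene, nitric oxide and arginine genes tested, 3 rose and 6 fell. The rises numbered 3, 1 and 1 with control 1, 2 or 3 left out and 1, 5 and 3 with periodontitis 1, 2 or 3 left out. The falls numbered 6, 2 and 2 with control 1, 2 or 3 left out and 1, 6 and 2 with periodontitis 1, 2 or 3 left out.

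Inhibitors, feedback genes and targets of NF-kB rose together: 12 of 29 genes tested were called higher, none lower, and 26 of 29 had a positive log2 fold change. Their median log2 fold change was 0.61. Tnfaip3, or A20, the ubiquitin-editing enzyme that ends NF-kB signalling, stood at 132, 116 and 94.5 CPM in controls 1 to 3 and 268, 491 and 316 CPM in periodontitis 1 to 3. Periodontitis 2 was the highest, no libraries overlapped, and the log2 fold change was 1.65 ± 0.24 (SE, adjusted p = 0.00360). Nfkbiz, a nuclear IkB that is needed for a subset of targets, stood at 187, 158 and 119.8 CPM in controls 1 to 3 and 312, 555 and 358 CPM in periodontitis 1 to 3. The log2 fold change was 1.40 ± 0.23 (SE, adjusted p = 0.00543). Nfkbid, another nuclear IkB, rose by 1.03 ± 0.18 (SE, adjusted p = 0.00568) on the log2 scale, and Map3k8, the kinase that links NF-kB1 to MAPK signalling, rose by 0.94 ± 0.19 (SE, adjusted p = 0.0126). Nfkbia, IkBalpha, the main cytoplasmic inhibitor, stood at 356, 341 and 269 CPM in controls 1 to 3 and 481, 738 and 491 CPM in periodontitis 1 to 3. It rose by 0.82 ± 0.17 (SE, adjusted p = 0.0145) on the log2 scale, and without control 3 the adjusted p was 0.0704. Nfkb1, a DNA-binding subunit, was not called, at a log2 fold change of 0.23 ± 0.13 (SE, adjusted p = 0.282). The number of NF-kB list genes called higher was 12, 5 and 7 with control 1, 2 or 3 left out. It was 8, 10 and 13 with periodontitis 1, 2 or 3 left out. Adjusting for neuron levels left 8 called higher at a median log2 fold change of 0.74, and adjusting for sarcomere levels left 5 at 0.60. Adjusting for both together left 0 called, at a median of 0.75. The median was 0.48 with periodontitis 1 alone in its arm and 0.96 with periodontitis 2 alone.

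Promoter windows of 3 genes that rose are shown because each holds an NF-kB motif, the letters GGG, any 2 bases and TTTCC, searched on both strands. The windows run 250 bases before to 50 after the RefSeq start in build GRCm38.p6, 5′ to 3′ on the gene's strand, with the match in capitals. They lie at chr12:55492598-55492897 on the minus strand for Nfkbia, at chr10:19015361-19015660 on the minus strand for Tnfaip3 and at chr5:90785851-90786150 on the plus strand for Cxcl3.
Nfkbia: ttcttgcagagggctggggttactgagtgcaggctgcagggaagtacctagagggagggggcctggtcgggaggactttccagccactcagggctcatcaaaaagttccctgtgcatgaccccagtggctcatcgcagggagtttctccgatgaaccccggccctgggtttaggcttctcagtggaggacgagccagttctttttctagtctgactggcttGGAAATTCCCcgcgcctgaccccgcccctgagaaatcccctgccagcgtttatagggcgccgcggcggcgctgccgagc
Tnfaip3: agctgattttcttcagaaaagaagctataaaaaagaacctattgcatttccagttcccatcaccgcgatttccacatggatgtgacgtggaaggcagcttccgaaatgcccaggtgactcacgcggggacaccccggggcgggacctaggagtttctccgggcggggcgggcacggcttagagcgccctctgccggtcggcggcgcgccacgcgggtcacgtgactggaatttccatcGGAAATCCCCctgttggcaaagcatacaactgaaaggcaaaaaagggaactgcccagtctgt
Cxcl3: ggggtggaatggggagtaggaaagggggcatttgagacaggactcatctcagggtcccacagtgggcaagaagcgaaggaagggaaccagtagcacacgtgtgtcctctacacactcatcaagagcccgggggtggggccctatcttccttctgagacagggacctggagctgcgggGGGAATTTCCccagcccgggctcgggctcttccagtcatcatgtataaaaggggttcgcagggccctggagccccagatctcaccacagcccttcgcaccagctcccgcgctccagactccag
Of the 12 NF-kB list genes called higher, 10 had a window and 2 of these (20%) held the letters, against 264 of 12825 genes tested that had a window (2.06%) and 1.63% of all 32851 windows. The Tnfaip3 and Cxcl3 windows also hold CACGTG, the E-box letters described further on, in lower case and not overlapping the match. The NF-kB share of the list rests on 2 genes, and members that were not called were not counted apart. The list itself was chosen for inhibitors, feedback genes and targets of NF-kB, so this share is not tied to the rise. These matches are descriptions of letters, not of binding.

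Receptors for bacterial and chemoattractant signals rose in 8 of 44 genes tested and fell in 2, and the rises numbered 6, 4 and 5 with control 1, 2 or 3 left out and 6, 7 and 6 with periodontitis 1, 2 or 3 left out. Tlr3, an endosomal receptor for double-stranded RNA, stood at 6.42, 4.73 and 7.38 CPM in controls 1 to 3 and 13.2, 16.4 and 12.2 CPM in periodontitis 1 to 3, and it rose by 1.17 ± 0.20 (SE, adjusted p = 0.00568) on the log2 scale. Nod1, a cytosolic sensor of bacterial peptidoglycan, stood at 38.1, 34.4 and 39.5 CPM in controls 1 to 3 and 59.3, 73.7 and 50.3 CPM in periodontitis 1 to 3. The fitted log2 fold change was 0.71 ± 0.13 (SE, adjusted p = 0.00719). Irak2, a kinase below Toll-like and interleukin-1 receptors, rose by 0.86 ± 0.16 (SE, adjusted p = 0.00719), and Ptafr, the receptor for platelet-activating factor, by 1.18 ± 0.20 (SE, adjusted p = 0.00578), both on the log2 scale. These 4 calls held in all 6 fits that leave out a library, and no libraries overlapped between arms. Tlr2, the receptor for bacterial lipoproteins, stood at 77.1, 83.4 and 115 CPM in controls 1 to 3 and 118, 235 and 179 CPM in periodontitis 1 to 3. It rose by 0.95 ± 0.23 (SE, adjusted p = 0.0252) on the log2 scale, although without control 1 or 2, or without periodontitis 3 the adjusted p was 0.0508 to 0.0827. Tlr4, the receptor for lipopolysaccharide, was not called, at a log2 fold change of 0.23 ± 0.29 (SE, adjusted p = 0.663).

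Interferon-inducible genes rose in 6 of 39 tested and fell in 1, with a median log2 fold change of 0.47, which was 0.20 without periodontitis 2. The rises numbered 4, 2 and 5 with control 1, 2 or 3 left out and 4, 5 and 5 with periodontitis 1, 2 or 3 left out. Of the 6 that rose 4 were guanylate-binding proteins, GTPases that attack intracellular pathogens. Gbp5 stood at 41.7, 38.1 and 56.7 CPM in controls 1 to 3 and 106, 276 and 119.8 CPM in periodontitis 1 to 3, and Gbp2 stood at 70.6, 49.1 and 84.2 CPM in controls 1 to 3 and 131, 258 and 137 CPM in periodontitis 1 to 3. Periodontitis 2 was the highest in both, with log2 fold changes of 1.88 ± 0.36 (SE, adjusted p = 0.00889) for Gbp5 and 1.37 ± 0.26 (SE, adjusted p = 0.00928) for Gbp2. Ifit1 and Mx1, classic targets of type I interferon, were not called, at log2 fold changes of 0.90 ± 0.37 (SE, adjusted p = 0.134) and 0.68 ± 0.39 (SE, adjusted p = 0.297). Of 18 acute-phase and antimicrobial genes tested 3 rose, Steap4, Saa3 and Il1rn, and none fell, with 11 log2 fold changes negative and a median of -0.20. The rises numbered 2, 2 and 2 with control 1, 2 or 3 left out and 2, 4 and 2 with periodontitis 1, 2 or 3 left out. Steap4, a metalloreductase induced by inflammation, stood at 122, 126 and 119 CPM in controls 1 to 3 and 236, 298 and 212 CPM in periodontitis 1 to 3 and rose by 1.02 ± 0.16 (SE, adjusted p = 0.00414) on the log2 scale. Saa3, a serum amyloid A made outside the liver, stood at 35.1, 33.4 and 57.4 CPM in controls 1 to 3 and 803, 387 and 358 CPM in periodontitis 1 to 3. No libraries overlapped between arms, and Saa3 rose by 3.62 ± 0.99 (SE, adjusted p = 0.0387) on the log2 scale, but without control 1, 2 or 3, or without periodontitis 1 or 3 the adjusted p was 0.0602 to 0.132.

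Red-cell transcripts were lower in periodontitis: 18 of 33 erythroid genes tested fell and none rose, with a median log2 fold change of -1.71. Bpgm, bisphosphoglycerate mutase, which sets oxygen affinity in red cells, stood at 168, 179.7 and 181 CPM in controls 1 to 3 and 76.9, 59.9 and 60.6 CPM in periodontitis 1 to 3. No libraries overlapped, and the log2 fold change was -1.42 ± 0.12 (SE, adjusted p = 2.68e-05), the smallest p among lower genes. Alas2, the first enzyme of erythroid haem synthesis, stood at 189, 263 and 325 CPM in controls 1 to 3 and 114, 78.99 and 84.5 CPM in periodontitis 1 to 3 and fell by 1.49 ± 0.25 (SE, adjusted p = 0.00551) on the log2 scale. Hbb-bs, adult beta-globin, stood at 4369, 4902 and 4831 CPM in controls 1 to 3 and 1855, 1479 and 1523 CPM in periodontitis 1 to 3 and had a log2 fold change of -1.54 ± 0.31 (SE, adjusted p = 0.0126). Hba-a1, alpha-globin, fell by 1.65 ± 0.29 (SE, adjusted p = 0.00687) on the log2 scale. The globin genes have near-identical copies whose reads the counting could split. The number of erythroid genes called lower was 18, 9 and 7 with control 1, 2 or 3 left out and 8, 14 and 16 with periodontitis 1, 2 or 3 left out, and 7, including Bpgm, Alas2 and both globins, held in all 6. The summed level of the erythroid list was 14829, 17131 and 16161 CPM in controls 1 to 3 and 6360.3, 6390.4 and 6355 CPM in periodontitis 1 to 3.

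B cell genes were also lower. By the mean log2 CPM of the erythroid, B cell, platelet and primary granule lists, control 3 was the highest and periodontitis 1 the lowest of the 6 libraries. Among B cell genes 13 of 31 fell and none rose, with a median log2 fold change of -1.40. Cd79a, part of the B cell receptor, stood at 31.8, 39.1 and 48.2 CPM in controls 1 to 3 and 4.51, 15.3 and 10.7 CPM in periodontitis 1 to 3. Its log2 fold change was -1.96 ± 0.42 (SE, adjusted p = 0.0148), and without control 2 or 3, or without periodontitis 1 the adjusted p was 0.0531 to 0.0676. Rag1, the recombinase of developing lymphocytes, stood at 10.8, 14.5 and 34.2 CPM in controls 1 to 3 and 1.26, 5.50 and 3.72 CPM in periodontitis 1 to 3. It had a log2 fold change of -2.51 ± 0.71 (SE, adjusted p = 0.0425), and without control 2 or 3, or without periodontitis 1 or 3 the adjusted p was 0.0842 to 0.181. The number of B cell genes called lower was 13, 1 and 0 with control 1, 2 or 3 left out and 0, 16 and 1 with periodontitis 1, 2 or 3 left out.

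Platelet genes fell in 4 of 23 tested, with a median log2 fold change of -1.35, and the falls numbered 4, 1 and 2 with control 1, 2 or 3 left out and 1, 5 and 2 with periodontitis 1, 2 or 3 left out. Pf4, platelet factor 4, stood at 140.4, 171 and 152 CPM in controls 1 to 3 and 42.01, 72.1 and 67.9 CPM in periodontitis 1 to 3, and its log2 fold change of -1.35 ± 0.26 (SE, adjusted p = 0.00894) held in all 6 fits that leave out a library. Itga2b, the alpha chain of the fibrinogen receptor, fell by 1.46 ± 0.35 (SE, adjusted p = 0.0245) on the log2 scale, but without control 2 or 3, or without periodontitis 1 or 3 the adjusted p was 0.0502 to 0.116. Mature neutrophil genes were uneven. S100a8, a subunit of calprotectin, stood at 1921, 2427 and 4021 CPM in controls 1 to 3 and 638, 2051 and 1558 CPM in periodontitis 1 to 3. Periodontitis 2 lay within the control range, and the log2 fold change of -0.98 ± 0.46 (SE, adjusted p = 0.185) was not called. The 24 neutrophil genes had a median log2 fold change of -0.90, with 18 negative and 6 positive. Among them 1 was called lower (4.17%), near the 3.47% of all genes tested. It was Ltb4r1, the receptor for leukotriene B4, with a log2 fold change of -1.43 ± 0.39 (SE, adjusted p = 0.0387). Without control 2 or 3, or without periodontitis 1 or 3 its adjusted p was 0.0734 to 0.159. Of 16 genes of primary granules and marrow precursors 1 fell and none had a positive log2 fold change, with a median of -1.83. Of 33 monocyte and macrophage genes 2 fell, with a median of 0.00, and the falls numbered 2, 0 and 0 with control 1, 2 or 3 left out and 0, 2 and 0 with periodontitis 1, 2 or 3 left out. Ccr2, the receptor of monocytes leaving marrow, was one of these, at 64.7, 95.1 and 142 CPM in controls 1 to 3 and 38.7, 35.98 and 43.2 CPM in periodontitis 1 to 3. It fell by 1.36 ± 0.31 (SE, adjusted p = 0.0205) on the log2 scale, but without control 2 or 3, or without periodontitis 1 or 3 the adjusted p was 0.0539 to 0.0972.

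Of 20 eosinophil and mast cell genes tested 3 rose, 5 fell and 12 were not called. The rises numbered 2, 1 and 0 with control 1, 2 or 3 left out and 0, 3 and 2 with periodontitis 1, 2 or 3 left out. The falls numbered 6, 1 and 0 with control 1, 2 or 3 left out and 0, 3 and 0 with periodontitis 1, 2 or 3 left out. The 3 genes that rose were mast cell proteases, and no other mast cell gene of the list was called higher. Mcpt4, a chymase of connective tissue mast cells, stood at 1.79, 2.66 and 1.10 CPM in controls 1 to 3 and 13.6, 5.15 and 5.61 CPM in periodontitis 1 to 3. The gene's log2 fold change was 2.13 ± 0.45 (SE, adjusted p = 0.0141), and without control 3 or periodontitis 1 the adjusted p was 0.0671 and 0.0813. Cma1, another chymase, rose by 1.92 ± 0.48 (SE, adjusted p = 0.0271) on the log2 scale, and without control 2 or 3, or without periodontitis 1 the adjusted p was 0.0842 to 0.172. Tpsb2, a tryptase, rose by 1.76 ± 0.51 (SE, adjusted p = 0.0461), and without control 1, 2 or 3, or without periodontitis 1 or 3 the adjusted p was 0.0637 to 0.235. Genes of eosinophil granules were among the 5 that fell. Epx, eosinophil peroxidase, stood at 15.4, 23.8 and 112 CPM in controls 1 to 3 and 4.21, 7.38 and 8.03 CPM in periodontitis 1 to 3. Control 3 was far above the other controls, the log2 fold change was -2.95 ± 0.76 (SE, adjusted p = 0.0315), and without control 2 or 3, or without periodontitis 1 or 3 the adjusted p was 0.0561 to 0.252. Prg2, the major basic protein, fell by 2.19 ± 0.60 (SE, adjusted p = 0.0388) on the log2 scale, and without control 2 or 3, or without periodontitis 1, 2 or 3 the adjusted p was 0.0681 to 0.213.

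**Figure D3:**
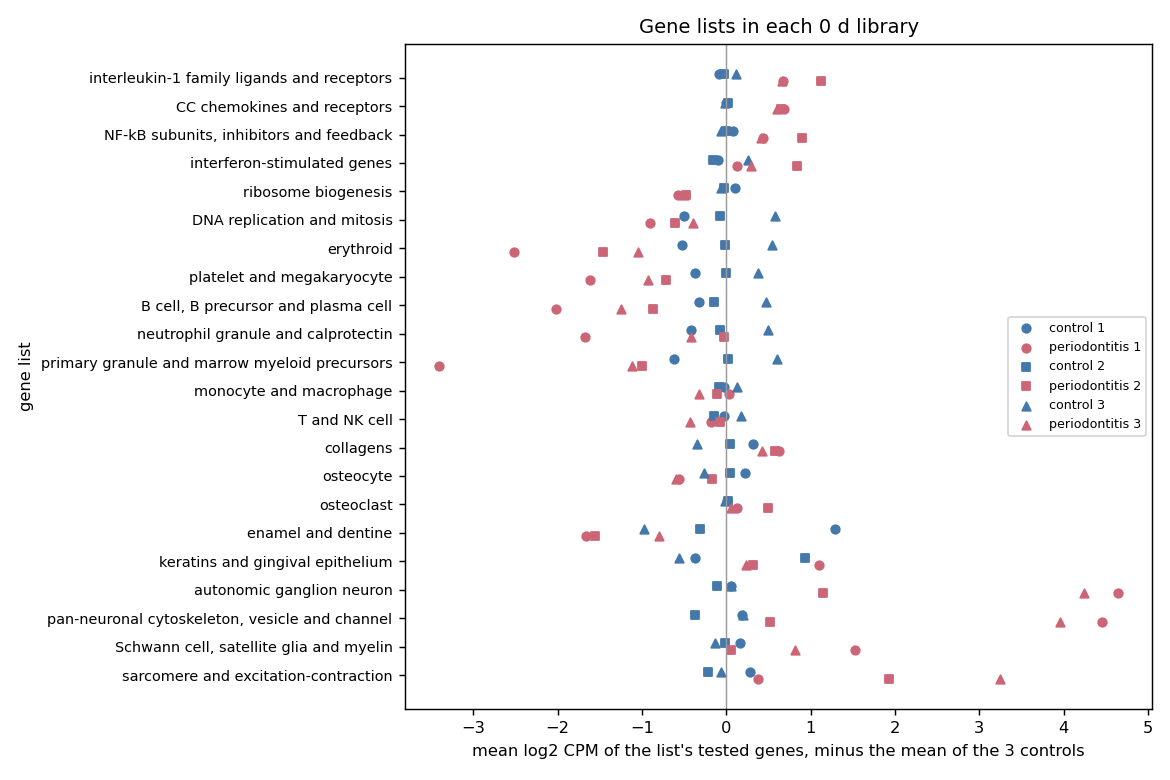
Mean log2 CPM of the tested genes of 22 lists in each library of 0 d, minus the mean of the 3 controls (horizontal axis), with controls in blue, periodontitis in red and a marker shape for each replicate number. Ribosome biogenesis is lower in all 3 periodontitis libraries to a like degree, neuron lists stand out in periodontitis 1 and 3, and the sarcomere list stands out in periodontitis 2 and 3.

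Genes that build ribosomes were lower in periodontitis as a group. Of 51 ribosome biogenesis genes tested 32 were called lower and none higher, and all 51 log2 fold changes were negative, with a median of -0.53 beside -0.02 over all genes. The levels of the arms did not overlap in 48 of the 51. Among all genes tested 28% did not overlap, and 15.3% did not overlap with periodontitis lower. Heatr1, a component of the small-subunit processome needed for RNA polymerase I transcription, stood at 110.2, 107 and 132 CPM in controls 1 to 3 and 59.5, 66.6 and 64.1 CPM in periodontitis 1 to 3. It had a log2 fold change of -0.88 ± 0.12 (SE, adjusted p = 0.00298). Polr1b, the second-largest subunit of RNA polymerase I, stood at 68.7, 72.1 and 59.4 CPM in controls 1 to 3 and 36.7, 40.99 and 41.4 CPM in periodontitis 1 to 3 and fell by 0.75 ± 0.11 (SE, adjusted p = 0.00299) on the log2 scale. Nop16 and Rrp1b, nucleolar proteins of large-subunit assembly, had log2 fold changes of -0.67 ± 0.09 (SE, adjusted p = 0.00298) and -0.78 ± 0.12 (SE, adjusted p = 0.00414). Nat10, which acetylates ribosomal RNA, fell by 0.55 ± 0.09 (SE, adjusted p = 0.00420), and Nop2, an rRNA methyltransferase, fell by 0.65 ± 0.10 (SE, adjusted p = 0.00431). These 6 calls held in all 6 fits that leave out a library. Ncl, nucleolin, stood at 655, 593 and 636 CPM in controls 1 to 3 and 406, 462 and 428 CPM in periodontitis 1 to 3, with a log2 fold change of -0.54 ± 0.11 (SE, adjusted p = 0.0141), and without periodontitis 1 or 3 the adjusted p was 0.0941 and 0.0612.

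All 51 differences were smaller than 2-fold and of like size in the 3 periodontitis libraries. The list's median was -0.53 with periodontitis 1 as the only library of its arm and -0.47 with periodontitis 2, and -0.42 with neuron levels as a covariate. The calls were less stable, with 7 genes lower with the neuron covariate and 19 with the sarcomere covariate. With both covariates 0 were called, at a median of -0.50. The number of ribosome biogenesis genes called lower was 12, 9 and 20 with control 1, 2 or 3 left out and 6, 25 and 12 with periodontitis 1, 2 or 3 left out. The summed level of the list was 4970.1, 4489 and 4491 CPM in controls 1 to 3 and 3108, 3387 and 3260.4 CPM in periodontitis 1 to 3. Myc, the transcription factor best known for driving these genes, stood at 196, 166 and 132 CPM in controls 1 to 3 and 88.1, 107 and 102 CPM in periodontitis 1 to 3. It fell by 0.73 ± 0.14 (SE, adjusted p = 0.00877) on the log2 scale, and without periodontitis 1 the adjusted p was 0.0615. Odc1, ornithine decarboxylase, a classic Myc target that makes polyamines, stood at 512, 433 and 388 CPM in controls 1 to 3 and 259, 312 and 277 CPM in periodontitis 1 to 3. It fell by 0.65 ± 0.14 (SE, adjusted p = 0.0138), and without periodontitis 1 the adjusted p was 0.0768. Atf4, the transcription factor of amino acid supply, fell by 0.47 ± 0.11 (SE, adjusted p = 0.0197), and without control 1 or 2, or without periodontitis 1 or 3 the adjusted p was 0.0604 to 0.106.

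**Figure D4:**
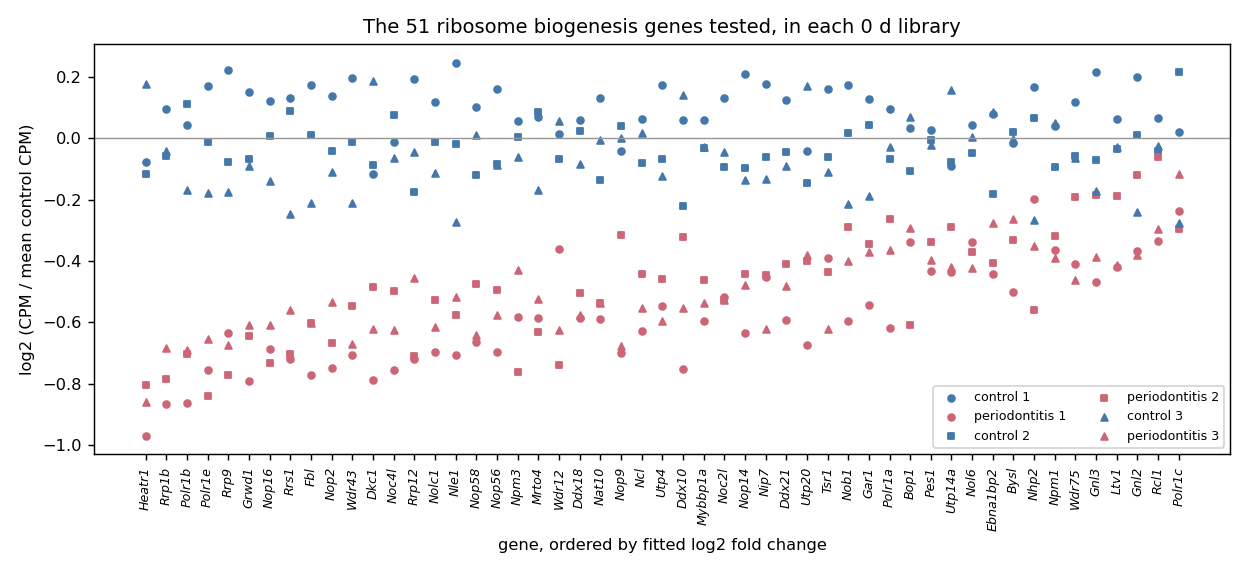
Each library's CPM of the 51 ribosome biogenesis genes tested, as the log2 ratio to the mean of the 3 controls (vertical axis), with genes ordered by fitted log2 fold change (horizontal axis), controls in blue and periodontitis in red. Periodontitis libraries lie below the controls without overlap in 48 of the 51 genes, against 15.3% of all genes tested.

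Promoter windows of 2 lower genes of ribosome assembly are shown because both hold CACGTG, the E-box letters that Myc and other factors can bind. The letters read the same on both strands, the match is in capitals, and the windows are taken from RefSeq starts in build GRCm38.p6 as above. They lie at chr6:125131633-125131932 on the plus strand for Nop2 and at chr7:45830740-45831039 on the minus strand for Grwd1, a chaperone of a large-subunit protein. Grwd1 itself fell by 0.68 ± 0.13 (SE, adjusted p = 0.00874) on the log2 scale, and without periodontitis 1 the adjusted p was 0.0536.
Nop2: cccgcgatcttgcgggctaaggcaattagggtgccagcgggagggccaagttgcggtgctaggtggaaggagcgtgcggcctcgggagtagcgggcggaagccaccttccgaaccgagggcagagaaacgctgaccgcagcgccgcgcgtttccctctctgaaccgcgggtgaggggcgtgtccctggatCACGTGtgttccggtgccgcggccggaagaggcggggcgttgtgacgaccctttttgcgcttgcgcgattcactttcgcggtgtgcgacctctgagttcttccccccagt
Grwd1: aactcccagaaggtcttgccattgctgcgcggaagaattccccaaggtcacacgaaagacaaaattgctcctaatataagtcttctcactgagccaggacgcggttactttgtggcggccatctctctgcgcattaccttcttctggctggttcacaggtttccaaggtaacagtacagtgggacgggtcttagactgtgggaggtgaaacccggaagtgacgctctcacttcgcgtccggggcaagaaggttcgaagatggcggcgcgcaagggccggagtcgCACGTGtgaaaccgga
Of the 32 ribosome biogenesis genes called lower, 29 had a window and 8 of these (27.6%) held CACGTG, against 1385 of 12825 genes tested that had a window (10.8%) and 7.15% of all windows. Members of the list that were not called were not counted apart, so these shares are not tied to the fall at 0 d. No factor's binding was measured, and a part of Myc was not tested.

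Genes of DNA replication and mitosis fell in 21 of 48 tested and rose in none, with a median log2 fold change of -0.68. Mki67, the proliferation marker Ki-67, stood at 148, 209 and 434 CPM in controls 1 to 3 and 79.99, 121 and 157 CPM in periodontitis 1 to 3. Control 3 was the highest and periodontitis 1 the lowest, as in the erythroid and B cell lists, and periodontitis 3 exceeded control 1, so the arms overlapped. The log2 fold change was -1.14 ± 0.30 (SE, adjusted p = 0.0346), and without control 2 or 3, or without periodontitis 1 or 2 the adjusted p was 0.0553 to 0.172. Mcm7, part of the replicative helicase, fell by 0.82 ± 0.19 (SE, adjusted p = 0.0202) on the log2 scale, and without control 2 or 3, or without periodontitis 1 the adjusted p was 0.0636 to 0.121. Tk1, thymidine kinase 1, fell by 0.68 ± 0.14 (SE, adjusted p = 0.0142), and without control 2 or 3, or without periodontitis 1 the adjusted p was 0.0524 to 0.0741. The number of replication and mitosis genes called lower was 25, 2 and 0 with control 1, 2 or 3 left out and 0, 12 and 9 with periodontitis 1, 2 or 3 left out. The part of marrow cells in these falls was not tested.

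Ligands of the EGF receptor were called in opposite directions. Hbegf, which is shed from the cell surface and drives wound closure, stood at 232, 197 and 141 CPM in controls 1 to 3 and 77.3, 94.7 and 85.4 CPM in periodontitis 1 to 3. All periodontitis libraries lay below all controls, and the log2 fold change was -1.15 ± 0.16 (SE, adjusted p = 0.00298). Ereg, epiregulin, and Areg, amphiregulin, ligands of the same receptor, went the other way. Ereg stood at 0.728, 1.23 and 0.0610 CPM in controls 1 to 3 and 7.81, 8.35 and 3.07 CPM in periodontitis 1 to 3, and its log2 fold change was 3.24 ± 0.88 (SE, adjusted p = 0.0376), although without control 1, 2 or 3, or without periodontitis 1 the adjusted p was 0.0655 to 0.121. Areg stood at 0.265, 0.130 and 0.183 CPM in controls 1 to 3 and 1.74, 1.67 and 1.30 CPM in periodontitis 1 to 3. It rose by 2.98 ± 0.74 (SE, adjusted p = 0.0277) on the log2 scale, and without control 2 or 3, or without periodontitis 1 or 3 the adjusted p was 0.0504 to 0.101. Ctgf, connective tissue growth factor, a target of YAP and TGF-beta signalling, stood at 1466, 1208 and 920.5 CPM in controls 1 to 3 and 477, 567 and 556 CPM in periodontitis 1 to 3. The fitted log2 fold change was -1.17 ± 0.20 (SE, adjusted p = 0.00569), and the calls of Hbegf and Ctgf held in all 6 fits that leave out a library. Dusp6, the phosphatase that restrains ERK and is induced by it, stood at 278, 235 and 172 CPM in controls 1 to 3 and 121, 143 and 126 CPM in periodontitis 1 to 3 and fell by 0.81 ± 0.15 (SE, adjusted p = 0.00730), and without periodontitis 1 the adjusted p was 0.0511. Of 22 dual-specificity phosphatase and MAPK feedback genes tested, Dusp6 was the 1 that fell, while 3 rose. Among the 3 were Dusp16, by 0.87 ± 0.17 (SE, adjusted p = 0.0114), and Dusp1, by 0.99 ± 0.27 (SE, adjusted p = 0.0400). The call of Dusp16 held in all 6 fits that leave out a library and that of Dusp1 in 1. Lgr6, a receptor for R-spondins, stood at 118, 111 and 82.8 CPM in controls 1 to 3 and 38.9, 43.01 and 42.1 CPM in periodontitis 1 to 3. It fell by 1.33 ± 0.22 (SE, adjusted p = 0.00557) on the log2 scale, while Rspo3, an R-spondin, rose by 2.88 ± 0.43 (SE, adjusted p = 0.00401) from low levels of 0.463, 0.194 and 0.122 CPM in controls 1 to 3 to 1.74, 1.60 and 2.48 CPM in periodontitis 1 to 3. Among the 45 growth factor genes tested 5 rose and 2 fell, and the rises numbered 3, 0 and 1 with control 1, 2 or 3 left out and 0, 4 and 2 with periodontitis 1, 2 or 3 left out.

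Among 22 genes of iron, haem and the linked oxidative stress response 6 fell and 1 rose, and the falls numbered 4, 2 and 4 with control 1, 2 or 3 left out and 1, 6 and 2 with periodontitis 1, 2 or 3 left out. Hmox1, haem oxygenase-1, which degrades haem, stood at 1036, 734 and 791 CPM in controls 1 to 3 and 398, 397 and 448 CPM in periodontitis 1 to 3. The arms did not overlap and it fell by 1.04 ± 0.30 (SE, adjusted p = 0.0429) on the log2 scale, but without any 1 of the 6 libraries the adjusted p was 0.0877 to 0.165. Srxn1, sulfiredoxin, stood at 494, 371 and 199 CPM in controls 1 to 3 and 182, 174 and 166 CPM in periodontitis 1 to 3. Control 1 was the highest, the log2 fold change was -1.03 ± 0.22 (SE, adjusted p = 0.0156), and without control 1 or 2, or without periodontitis 1 or 3 the adjusted p was 0.0547 to 0.0622. Gclm, a subunit of the enzyme that starts glutathione synthesis, fell by 0.67 ± 0.14 (SE, adjusted p = 0.0137), and without periodontitis 1 the adjusted p was 0.0615. Blvrb, biliverdin reductase B, an enzyme abundant in red cells, stood at 35.5, 49.1 and 51.5 CPM in controls 1 to 3 and 22.9, 24.01 and 29.6 CPM in periodontitis 1 to 3 and fell by 0.83 ± 0.14 (SE, adjusted p = 0.00578) in a call that held in all 6 fits.

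Of 39 wound matrix and fibroblast surface genes tested 5 rose and 2 fell, with a median log2 fold change of 0.15. The rises numbered 5, 3 and 2 with control 1, 2 or 3 left out and 3, 6 and 4 with periodontitis 1, 2 or 3 left out. Ctgf, described above, was 1 of the 2 that fell. Of 23 TIMPs and ADAMTS proteases 3 rose and none fell, with a median of 0.15. Has2, the main synthase of hyaluronan, stood at 5.23, 2.79 and 5.55 CPM in controls 1 to 3 and 30.8, 26.2 and 30.3 CPM in periodontitis 1 to 3. The arms were far apart, and the log2 fold change was 2.68 ± 0.44 (SE, adjusted p = 0.00491). Col8a1, a short-chain collagen made in vessel walls and wounds, stood at 18.6, 14.3 and 8.85 CPM in controls 1 to 3 and 69.95, 48.5 and 57.5 CPM in periodontitis 1 to 3 and rose by 2.08 ± 0.29 (SE, adjusted p = 0.00298) on the log2 scale. Adamts15, a protease that cleaves versican, stood at 9.27, 10.8 and 8.36 CPM in controls 1 to 3 and 29.8, 22.3 and 18.9 CPM in periodontitis 1 to 3. It rose by 1.32 ± 0.20 (SE, adjusted p = 0.00414), and Cthrc1, a secreted glycoprotein of injured and remodelling tissue, stood at 79.9, 81.9 and 51.1 CPM in controls 1 to 3 and 144, 153 and 125 CPM in periodontitis 1 to 3 and rose by 0.99 ± 0.17 (SE, adjusted p = 0.00586). H19, an imprinted long noncoding RNA of fetal and regenerating tissue, stood at 14.8, 14 and 12.1 CPM in controls 1 to 3 and 72.6, 54.8 and 102 CPM in periodontitis 1 to 3, with a log2 fold change of 2.49 ± 0.29 (SE, adjusted p = 9.32e-04). The calls of Has2, Col8a1, Adamts15, Cthrc1 and H19 held in all 6 fits that leave out a library. Mmp3, stromelysin-1, stood at 18.3, 12.8 and 17.9 CPM in controls 1 to 3 and 115, 73.9 and 64.5 CPM in periodontitis 1 to 3. It rose by 2.37 ± 0.55 (SE, adjusted p = 0.0209) on the log2 scale, and without control 2 or 3, or without periodontitis 1 the adjusted p was 0.0740 to 0.0890.

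Of 36 collagen genes tested 4 rose (11.1%) and 1 fell (2.78%), beside 4.81% and 3.47% of all genes tested. Their median log2 fold change was 0.46. The rises numbered 3, 2 and 2 with control 1, 2 or 3 left out and 2, 4 and 3 with periodontitis 1, 2 or 3 left out. Col1a1 and Col3a1, the fibrillar collagens of bone and soft tissue, overlapped between arms and were not called, at log2 fold changes of 0.38 ± 0.36 (SE, adjusted p = 0.541) and 0.45 ± 0.34 (SE, adjusted p = 0.445). Postn, periostin, a marker of periodontal ligament, stood at 5497, 4814 and 2749 CPM in controls 1 to 3 and 3265, 6021 and 3500.4 CPM in periodontitis 1 to 3. Control 1 and periodontitis 2 were the highest, and the log2 fold change was -0.03 ± 0.26 (SE, adjusted p = 0.958). Among ligament and tendon genes 3 of 23 rose and 1 fell, and the rises numbered 2, 1 and 1 with control 1, 2 or 3 left out and 1, 3 and 1 with periodontitis 1, 2 or 3 left out. Of 19 matrix metalloproteinases 4 rose and none fell, and the rises numbered 1, 0 and 0 with control 1, 2 or 3 left out and 0, 4 and 2 with periodontitis 1, 2 or 3 left out. Mmp9 and Mmp13, which osteoclasts and neutrophils, or osteoblasts and chondrocytes, make to open bone matrix, were not called. Mmp13 stood at 3699, 3364 and 3710.2 CPM in controls 1 to 3 and 4856, 7139.6 and 4566 CPM in periodontitis 1 to 3. No libraries overlapped between arms, as for 28% of all genes tested. The log2 fold change of Mmp13 was 0.62 ± 0.25 (SE, adjusted p = 0.117), beside 0.64 ± 0.29 (SE, adjusted p = 0.177) for Mmp9.

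Bone genes were called in both directions. Panx3, a channel of differentiating osteoblasts and chondrocytes, stood at 23.4, 23.6 and 14.6 CPM in controls 1 to 3 and 54.1, 47.7 and 47.3 CPM in periodontitis 1 to 3. It rose by 1.28 ± 0.18 (SE, adjusted p = 0.00299) on the log2 scale in a call that held in all 6 fits that leave out a library. Ibsp, bone sialoprotein, which nucleates mineral, stood at 3627, 3151 and 3059 CPM in controls 1 to 3 and 5252, 6067 and 4805 CPM in periodontitis 1 to 3 and rose by 0.71 ± 0.19 (SE, adjusted p = 0.0360), but without control 2 or 3, or without periodontitis 1 or 2 the adjusted p was 0.0568 to 0.127. Bglap, osteocalcin, stood at 2045, 1977 and 1061 CPM in controls 1 to 3 and 462, 980.5 and 705 CPM in periodontitis 1 to 3. Periodontitis 1 was the lowest, the log2 fold change was -1.24 ± 0.34 (SE, adjusted p = 0.0396), and without control 1 or 2, or without periodontitis 1 or 3 the adjusted p was 0.103 to 0.187. Reads of Bglap and its near-identical copy Bglap2 could be split by the counting. Sost, sclerostin, the Wnt inhibitor of osteocytes, stood at 80.6, 81.9 and 31.5 CPM in controls 1 to 3 and 17.01, 23.5 and 12.2 CPM in periodontitis 1 to 3. It fell by 1.88 ± 0.49 (SE, adjusted p = 0.0317) on the log2 scale, but without control 1 or 2, or without periodontitis 1 or 3 the adjusted p was 0.0767 to 0.128. Dmp1, a matrix protein of osteocytes and dentine, stood at 5483, 4207 and 3841 CPM in controls 1 to 3 and 1897, 2518 and 2125 CPM in periodontitis 1 to 3 and fell by 1.05 ± 0.28 (SE, adjusted p = 0.0372), but without control 1, 2 or 3, or without periodontitis 1 or 3 the adjusted p was 0.0744 to 0.171. Mepe, another osteocyte matrix protein, fell by 0.998 ± 0.24 (SE, adjusted p = 0.0260), but without control 1 or 2, or without periodontitis 1 or 3 the adjusted p was 0.0789 to 0.137.

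Of 17 osteocyte genes tested 3 fell and none rose, with a median log2 fold change of -0.44, and the falls numbered 0, 0 and 2 with control 1, 2 or 3 left out and 0, 3 and 0 with periodontitis 1, 2 or 3 left out. With periodontitis 2 as the only library of its arm that median was 0.01. Of 29 osteoblast genes 4 rose and 2 fell. The rises numbered 5, 1 and 1 with control 1, 2 or 3 left out and 1, 4 and 3 with periodontitis 1, 2 or 3 left out. The falls numbered 0, 0 and 1 with control 1, 2 or 3 left out and 0, 2 and 0 with periodontitis 1, 2 or 3 left out. The lineage transcription factors Runx2 and Sp7 were not called, at log2 fold changes of -0.28 ± 0.17 (SE, adjusted p = 0.317) and -0.04 ± 0.13 (SE, adjusted p = 0.897). RANKL, encoded by Tnfsf11, stood at 106, 108 and 91.7 CPM in controls 1 to 3 and 112, 178 and 124 CPM in periodontitis 1 to 3, and its decoy receptor osteoprotegerin, encoded by Tnfrsf11b, at 209.8, 154 and 179.8 CPM in controls 1 to 3 and 124, 146 and 129.9 CPM in periodontitis 1 to 3. The levels of the arms did not overlap for either, as for 28% of all genes tested. Neither was called, with log2 fold changes of 0.44 ± 0.21 (SE, adjusted p = 0.205) for Tnfsf11 and -0.44 ± 0.16 (SE, adjusted p = 0.0873) for Tnfrsf11b. Of 28 osteoclast genes 22 had a positive log2 fold change, with a median of 0.38. Only 2 rose (7.14%) and 1 fell (3.57%), near the 4.81% and 3.47% of all genes tested. The rises numbered 1, 0 and 0 with control 1, 2 or 3 left out and 0, 0 and 3 with periodontitis 1, 2 or 3 left out. Ctsk, cathepsin K, the collagenase of osteoclasts, stood at 1559.9, 1490.4 and 1229 CPM in controls 1 to 3 and 2142, 2635 and 1805 CPM in periodontitis 1 to 3. No libraries overlapped, but its log2 fold change of 0.62 ± 0.20 (SE, adjusted p = 0.0665) missed the threshold, as did that of Acp5, tartrate-resistant acid phosphatase, at 0.44 ± 0.21 (SE, adjusted p = 0.185). Oscar, a receptor that co-stimulates osteoclasts, rose by 0.84 ± 0.21 (SE, adjusted p = 0.0282) on the log2 scale, and without control 2 or 3, or without periodontitis 1 or 2 the adjusted p was 0.0531 to 0.109. The 1 osteoclast gene that fell, Car2, is also a red-cell gene.

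Of 20 cartilage genes tested 3 rose, Col9a1, Matn3 and Prg4, and 1 fell, Col2a1, with a median log2 fold change of 0.19. The rises numbered 1, 1 and 1 with control 1, 2 or 3 left out and 1, 3 and 1 with periodontitis 1, 2 or 3 left out, and the calls of Matn3 and Prg4 were each lost in 5 of the 6 fits. Col2a1, the main collagen of cartilage, stood at 1118, 1342 and 881 CPM in controls 1 to 3 and 81.8, 241 and 234 CPM in periodontitis 1 to 3. The arms did not overlap, the log2 fold change was -2.59 ± 0.57 (SE, adjusted p = 0.0182), and without control 2 or periodontitis 1 the adjusted p was 0.0618 and 0.0913. For Dspp, whose levels are given above, the log2 fold change was -8.43 ± 1.84 (SE, adjusted p = 0.0166), and without control 1 or periodontitis 1 the adjusted p was 0.0733 and 0.0855. Ambn, ameloblastin, an enamel matrix protein, stood at 41.8, 8.36 and 6.90 CPM in controls 1 to 3 and 0.721, 1.46 and 2.95 CPM in periodontitis 1 to 3. Control 1 was again the highest, the log2 fold change was -3.47 ± 0.68 (SE, adjusted p = 0.0106), and without periodontitis 1 the adjusted p was 0.0564. Of 13 enamel and dentine genes tested 5 fell and none rose, and the falls numbered 2, 3 and 4 with control 1, 2 or 3 left out and 1, 4 and 4 with periodontitis 1, 2 or 3 left out. Krt14, the keratin of basal gum epithelium, stood at 6.88, 16.5 and 5.74 CPM in controls 1 to 3 and 97.5, 37.2 and 16.8 CPM in periodontitis 1 to 3. Its log2 fold change of 2.38 ± 1.01 (SE, adjusted p = 0.144) was not called. Of 42 epithelial genes 1 fell (2.38%), beside 3.47% of all genes tested. That call was lost with any 1 library other than periodontitis 2 left out.

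Transcripts of ganglion neurons were high in periodontitis 1 and 3 and far lower in periodontitis 2. Vip, vasoactive intestinal peptide, a transmitter of parasympathetic neurons, stood at 0.0662, 0 and 0.0610 CPM in controls 1 to 3 and 753, 20.6 and 392 CPM in periodontitis 1 to 3. Periodontitis 1 and 3 were far above periodontitis 2, which itself stood above the controls. Because each control held at most 1 count, no fold is given. Vip was called (adjusted p = 0.0277), but without control 1, 2 or 3, or without periodontitis 1 the adjusted p was 0.0677 to 0.106. Nos1, neuronal nitric oxide synthase, stood at 0.662, 1.10 and 0.427 CPM in controls 1 to 3 and 435, 4.25 and 234 CPM in periodontitis 1 to 3. Its log2 fold change was 8.26 ± 2.27 (SE, adjusted p = 0.0388), but without control 1, 2 or 3, or without periodontitis 1 or 3 the adjusted p was 0.0678 to 0.136. Of 32 autonomic neuron genes tested 10 rose and none fell, and 8 of the list's genes were at 0 in all 3 controls. The rises numbered 3, 1 and 0 with control 1, 2 or 3 left out and 0, 19 and 3 with periodontitis 1, 2 or 3 left out. The summed level of the list was 83.1, 80.2 and 104 CPM in controls 1 to 3 and 2374, 114 and 1384 CPM in periodontitis 1 to 3. Among 74 general neuronal genes 27 rose, all 74 log2 fold changes were positive, and the median was 3.47. With periodontitis 2 as the only library of its arm the median was 0.54. The number called was 9, 2 and 2 with control 1, 2 or 3 left out and 3, 59 and 6 with periodontitis 1, 2 or 3 left out.

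Genes of the nerve sheath rose in 6 of 33 tested and fell in 1, with a median log2 fold change of 1.05, beside -0.31 with neuron levels as a covariate. The rises numbered 3, 1 and 1 with control 1, 2 or 3 left out and 1, 10 and 1 with periodontitis 1, 2 or 3 left out. Foxd3, a transcription factor of neural crest and satellite glia, stood at 1.19, 0.648 and 1.04 CPM in controls 1 to 3 and 22.2, 2.92 and 10.7 CPM in periodontitis 1 to 3. It followed the order of the neuron genes, and its log2 fold change of 3.63 ± 0.60 (SE, adjusted p = 0.00543) held in all 6 fits that leave out a library. Nsg1, a neuronal endosomal protein, stood at 24.02, 17.3 and 18.9 CPM in controls 1 to 3 and 110.04, 39.3 and 108 CPM in periodontitis 1 to 3. It rose by 2.09 ± 0.32 (SE, adjusted p = 0.00414) on the log2 scale, and with periodontitis 2 alone in its arm the log2 fold change was 0.97. Thy1, a surface protein of neurons and fibroblasts, stood at 16.4, 13.4 and 12.997 CPM in controls 1 to 3 and 130.1, 33.5 and 77.5 CPM in periodontitis 1 to 3 and rose by 2.50 ± 0.41 (SE, adjusted p = 0.00491), beside 1.24 with periodontitis 2 alone.

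Muscle transcripts followed a different order, with periodontitis 3 highest, periodontitis 2 next and periodontitis 1 near the controls. Of 56 sarcomere genes tested 12 rose and 1 fell, with a median log2 fold change of 2.78. Actn2, the alpha-actinin that anchors thin filaments at the Z disc, stood at 1.32, 1.17 and 1.22 CPM in controls 1 to 3 and 2.58, 16.6 and 59.8 CPM in periodontitis 1 to 3. The gene's log2 fold change was 4.405 ± 1.01 (SE, adjusted p = 0.0205), but without control 2 or 3, or without periodontitis 3 the adjusted p was 0.0778 to 0.0836. Ldb3, another Z disc protein, stood at 1.79, 0.907 and 0.976 CPM in controls 1 to 3 and 2.82, 10.7 and 35.1 CPM in periodontitis 1 to 3 and rose by 3.72 ± 0.71 (SE, adjusted p = 0.00879) in a call that held in all 6 fits. Acta1, skeletal muscle actin, stood at 13.8, 5.31 and 7.44 CPM in controls 1 to 3 and 27.4, 154 and 683 CPM in periodontitis 1 to 3. Its log2 fold change of 5.03 ± 1.63 (SE, adjusted p = 0.0657) missed the threshold. The number of sarcomere genes called higher was 6, 2 and 1 with control 1, 2 or 3 left out and 12, 16 and 1 with periodontitis 1, 2 or 3 left out, and the summed level of the list was 1634, 1463 and 1372 CPM in controls 1 to 3 and 1253, 2084 and 4411 CPM in periodontitis 1 to 3. With periodontitis 1 as the only library of its arm the list's median was 0.25.

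Plin4, a protein of lipid droplets in fat and muscle, stood at 6.09, 7.65 and 4.27 CPM in controls 1 to 3 and 44.8, 16.1 and 37.7 CPM in periodontitis 1 to 3. Periodontitis 1 and 3 were the highest, and the log2 fold change was 2.45 ± 0.43 (SE, adjusted p = 0.00578). Fabp3, a fatty acid carrier of muscle and heart, stood at 3.77, 4.67 and 1.83 CPM in controls 1 to 3 and 13.5, 9.95 and 16.4 CPM in periodontitis 1 to 3 and rose by 1.96 ± 0.34 (SE, adjusted p = 0.00578) on the log2 scale. Both calls held in all 6 fits that leave out a library. Of 18 adipocyte genes tested 2 rose, Plin4 and Lpl, lipoprotein lipase, the latter by 0.74 ± 0.16 (SE, adjusted p = 0.0149), and without control 3 the adjusted p was 0.0670. Without periodontitis 2 the adipocyte genes called numbered 5.

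The arm difference of 0 d was set beside those of 3 d and 7 d, whose 12 libraries are separate samples. By the same edgeR fit 25 genes (0.134%) were called at 3 d and none at 7 d, where 1188 genes (6.35%) had an unadjusted p under 0.05. Of the genes higher at 0 d 81.0% were also above control at 3 d, against 49.4% of all genes tested, and 55.3% at 7 d, against 52.6%. Of the lower genes 83.3% were below control at 3 d, against 50.6% of all, and 57.1% at 7 d, against 47.2%. At 3 d the neuron list was again high in periodontitis 1 and 2 and in control 2, with mean log2 CPM of 2.99, 3.26 and 3.51 against -0.52 to -0.14 in the other 3 libraries, and the sarcomere list was high in periodontitis 3, at 2.57 against -0.09 to 0.24 in the other 5. The median log2 fold change at 3 d was 1.51 for the sarcomere list and 0.48 for the general neuronal list, and the part of those tissues in the shared signs was not tested. The genes were chosen by their call at 0 d, which by itself makes their sizes larger on that day, with median log2 fold changes of 1.45 and -0.67. Later they had median log2 fold changes of 0.24 at 3 d and 0.03 at 7 d for genes higher at 0 d, and -0.19 and -0.03 for genes lower at 0 d.

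A test of the difference itself, the arm difference at 0 d minus the mean of those at 3 d and 7 d, called 27 genes (0.144%), 11 positive and 16 negative. Aplnr, at 2.79 on 0 d, had log2 fold changes of 0.33 at 3 d and 0.23 at 7 d, and the difference between days was 2.51 ± 0.26 (SE, adjusted p = 7.87e-04). Il23a had 0.88 at 3 d and -0.11 at 7 d, and a difference of 3.19 ± 0.52 (SE, adjusted p = 0.0278). Tfpi2, Thbd, Hbegf and Bpgm, lower on 0 d, lay between -0.12 and 0.10 at 3 d. At 7 d they had 0.12, 0.22, 0.23 and -0.30. Their differences were -1.59 ± 0.18 (SE, adjusted p = 0.00201), -1.39 ± 0.23 (SE, adjusted p = 0.0278), -1.20 ± 0.20 (SE, adjusted p = 0.0300) and -1.23 ± 0.15 (SE, adjusted p = 0.00201). Of the ribosome biogenesis genes Heatr1, Nop16, Polr1b, Rrp1b and Nat10 were called, with differences of -0.99 to -0.72, and the median log2 fold change of the whole list was -0.07 at 3 d and 0.14 at 7 d. Il1a, Cxcl3 and Il1b were not called by this test. Il1a had log2 fold changes of 2.28 at 3 d and 2.82 at 7 d, Cxcl3 had 2.78 and 2.62, and Il1b had 2.28 and 1.93. Il6, not called on 0 d, had 1.41 at 3 d and 1.74 at 7 d, and the difference of -1.24 ± 0.78 (SE, adjusted p = 0.439) was not called. Slpi, secretory leukocyte protease inhibitor, was the 1 gene called by this test and not at 0 d itself. It had a log2 fold change of 0.76 ± 0.36 (SE, adjusted p = 0.194) at 0 d, -2.35 at 3 d and -1.10 at 7 d. The number of genes called by the test between days was 3 without periodontitis 1 of 0 d, 7 without control 2, 5 without periodontitis 3, 51 without control 1 and 773 without periodontitis 2.

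**Figure D5:**
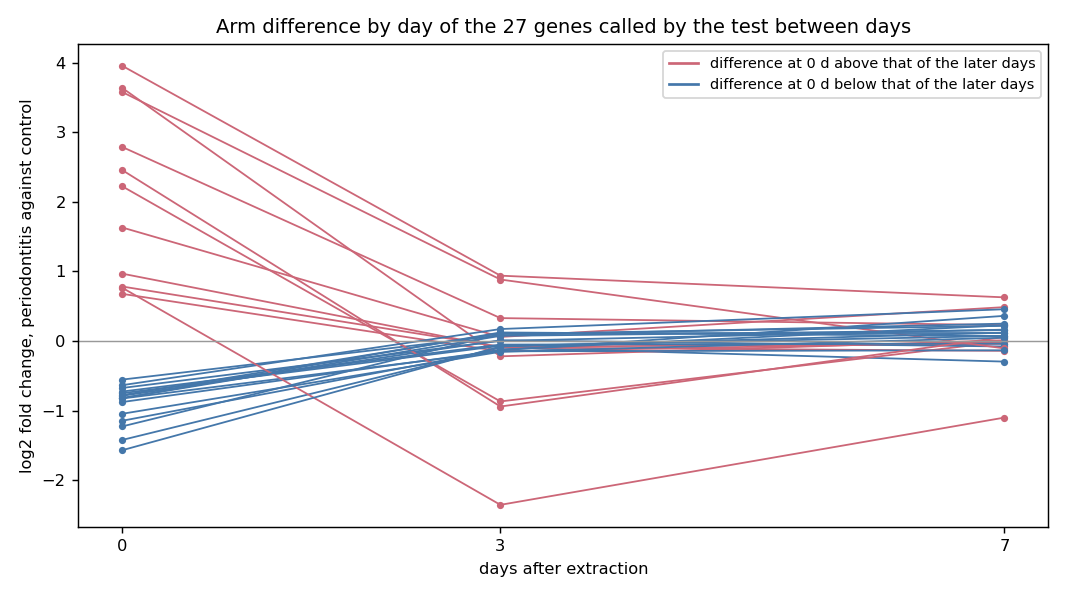
Log2 fold change of periodontitis against control (vertical axis) at 0, 3 and 7 days after extraction (horizontal axis) for the 27 genes called by the test between days, 1 line for each gene, red where the difference at 0 d is above that of the later days and blue where it is below. Most lines run from a difference at 0 d to near 0 at 3 d and 7 d.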

How the data were processed

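Whole-gene RNA counts were measured in 18 libraries, 3 for each of 2 arms at 0 d, 3 d and 7 d. The deposited table holds raw read counts for 54532 gene IDs, and the authors used HISAT2, StringTie and SAMtools, per the submitters' processing notes. The sources used here name neither the program that made the counts nor its strand setting, so reads of overlapping or antisense genes cannot be told apart. The processing notes list mm9, whereas 99.8% of IDs are in GENCODE M21 and 98.3% of these have its GRCm38 coordinates.

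Columns were matched to samples by name. Genes with enough counts by edgeR's filterByExpr (18697) were tested with edgeR 4.0.16 in R 4.3.3, by the quasi-likelihood test with TMM scaling and all 18 libraries in 6 groups. Benjamini-Hochberg adjustment covered all genes tested, and the threshold was 0.05. Levels are CPM computed from the counts, and list means use log2 CPM with a prior count of 2. The test was tried on simulated data first. No replicate pair of an arm at 0 d differed by as little as sampling noise, with a lowest chi-square of 9.83 per gene.

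The alternatives were other scalings and filters, DESeq2 1.42.0, limma 3.58.1 (voom with quality weights), a replicate block, each library of 0 d left out, pairs of libraries left out and list levels as covariates. The members and 60 gene lists were chosen with earlier results of these data known. Genes named are called members of the lists with the smallest p, the largest or most stable changes, and a set list named whether called or not. The genes named as not called beyond that list, namely Kdr, Nfkb1, Tlr4, Ifit1, Mx1 and Slpi, and the genes named only as the exceptions in a list, were chosen after their values were seen. Promoter windows are from RefSeq. Results for some genes named by these rules are not reported here.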

Additional observations from a re-analysis of the deposited data

Results flagged for a closer look

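For 14 of the genes described, the arm difference at 0 d differed from the mean of those at 3 d and 7 d by edgeR's quasi-likelihood test of that difference, adjusted over all genes tested. Values here are log2 differences between days, and a positive value means that periodontitis stood further above control at 0 d than later. Among genes higher in periodontitis at 0 d they were 2.51 for Aplnr, the apelin receptor, 3.19 for Il23a, the interleukin-23 subunit, 3.74 for Foxd3 of satellite glia and 2.90 for Plin4 of lipid droplets. Slpi, a protease inhibitor of secretions, had 2.49, with log2 fold changes of 0.76 at 0 d, -2.35 at 3 d and -1.10 at 7 d. Among genes lower at 0 d they were -1.59 for Tfpi2, -1.39 for Thbd, -1.20 for Hbegf and -1.23 for the red-cell enzyme Bpgm. In the ribosome biogenesis list they were -0.99 for Heatr1, -0.89 for Rrp1b, -0.76 for Nop16, -0.75 for Polr1b and -0.72 for Nat10. Foxd3 and Plin4 were highest in periodontitis 1 and 3, the libraries with the most neuron transcripts, and the part of those transcripts was not tested. This test called 3 genes without periodontitis 1 and 773 without periodontitis 2.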

How the results depend on the processing

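Against 1547 genes called (899 higher, 648 lower) and 27 called between days, DESeq2 called 2663, 1703 of them higher, and 872 between days, while voom called 6081 (3039 higher, 3042 lower) and 3161 between days. The 6 libraries of 0 d fitted alone gave 65 calls (44 higher, 21 lower), and with no filter 304 genes were called between days. Leaving out 1 library of 0 d gave 258 to 2121 calls, 185 to 1575 higher, 53 to 546 lower and 3 to 773 between days. Without periodontitis 1 and 3 there were 87 calls (78 higher, 9 lower) and 2 between days, and without periodontitis 2 and 3 there were 275 lower and 359 between days. With the neuron list as a covariate 191 were called (131 higher, 60 lower) and 5 between days. With the sarcomere list there were 782 (549 higher, 233 lower) and 13 between days, and with both lists 1 higher, 0 lower and 0 between days. RLE scaling, library totals and a minimum of 1 CPM kept all 4 counts within 1.5 times. The cause of these shifts was not tested, except that fits of fewer libraries have fewer samples.

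Uncalled or covariate-dependent genes changed sign. Postn had -0.03 on the log2 scale but 0.0067 with the 1 CPM filter, 0.0095 in the 6 libraries alone, -0.33 to 0.21 with single libraries left out, 0.47 without periodontitis 1 and 3, 0.34 with the neuron covariate and 0.41 with both. Sp7 had -0.04 but 0.0023 with the 1 CPM filter, 0.011 in the 6 libraries alone, -0.14 to 0.11 with single libraries left out, 0.072 without periodontitis 1 and 3 and 0.029 with the neuron covariate. Runx2 had 0.11 without periodontitis 1 and 3 and 0.034 with the neuron covariate, against -0.28. Without periodontitis 2 and 3, Il6 had -0.030 and Tlr4 -0.048. Nos1 had -0.060 with both.

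Replicate numbers were not taken as pairs, since same-numbered libraries of 0 d had correlations of 0.177, 0.060 and 0.115, although each correlated best with its own number. With the number as a block 1572 genes were called (873 higher, 699 lower) and 32 between days. In that fit 136 of the 139 genes examined singly kept their side of the threshold. Side and sign were both kept by 134 to 138 of them under other scalings and filters, 136 in DESeq2 and 126 in voom. In the 6 libraries of 0 d alone 47 did so. Adjusting for neuron levels left 76, for sarcomere levels 105 and for both together 24. Leaving out 1 library of 0 d left 87 to 130. Of the 115 called genes among them, 58 stayed called in all 6 of those fits.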
